A study of Homo sapiens with 9 samples.

Results

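MHC class I antigen presentation was followed through 9 genes, taken as the entries of the deposited count matrix whose symbol was HLA-B, HLA-C, HLA-E, HLA-F, B2M, TAP1, TAP2, PSMB8 or PSMB9. All 9 were found among 25369 entries with a symbol. RNA-seq had been run on 9 libraries of MCF10A, a long-established, non-tumorigenic cell line from human breast epithelium, to ask how an oncogene, the stiffness of the support and the co-activators YAP and TAZ act on it. HER2 cells had received, by retrovirus, the pBABEpuro vector with HER2-CA, an activated form of the receptor encoded by ERBB2 with a change at V659E, and empty-vector cells the vector alone. On plastic, each line received YAP/TAZ siRNA number 1 or number 3 (1 library each) or the control siRNA. The control siRNA was also used for cells replated on a polyacrylamide hydrogel of 0.5 kPa, a support far softer than plastic. HER2 cells gave 2 libraries with YAP/TAZ siRNA, 1 on the hydrogel and 1 control on plastic, and empty-vector cells gave 2, 1 and 2, where the last 2 are controls A and B. Every culture was grown with horse serum, insulin, EGF, hydrocortisone and cholera toxin, replated 24 h after transfection and harvested 24 h later. The labels do not say that libraries of a group came from separate cultures or that a line is a clone, so p-values measure the spread between these libraries only, which may be technical.

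Class I molecules display peptides from inside the cell on its surface, where CD8 T cells and natural killer cells inspect them. Each molecule pairs a membrane-spanning heavy chain (HLA-B and HLA-C are classical, HLA-E and HLA-F non-classical) with the light chain B2M. Peptides are cut by the proteasome, into which PSMB8 and PSMB9 are built as immunoproteasome subunits in place of the constitutive PSMB5 and PSMB6, and the TAP1-TAP2 transporter carries them into the endoplasmic reticulum for loading. Interferons raise most of these genes through IRF and STAT factors, and heavy chain and B2M promoters also carry an SXY module, read by the RFX complex and the co-activator NLRC5.

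The promoters of 6 members are shown because they include those of the heavy chains with a window, of their light chain B2M and of both TAP subunits. Each line holds the 250 bases before a RefSeq transcript start on GRCh38.p14, written 5′ to 3′ on the gene's own strand. They lie at chr6:31357180-31357429 (minus strand) for HLA-B, chr6:31272093-31272342 (minus) for HLA-C, chr6:29723184-29723433 (plus) for HLA-F, chr15:44711267-44711516 (plus) for B2M, chr6:32853705-32853954 (minus) for TAP1 and chr6:32838740-32838989 (minus) for TAP2. These are reference sequences and not the alleles of MCF10A. Capitals mark matches, on either strand, to an interferon element (ISRE, where GAAA recurs after a gap of 2 bases), a STAT element (GAS, TTCNNNGAA) or an NF-kB element (GGGNNTTCC). They also mark the core of the X2 box, which reads TGACG, and the box named for its own letters, CCAAT. TEAD factors are the DNA-binding partners of YAP and TAZ, and their element was searched as GGAATG.
HLA-B: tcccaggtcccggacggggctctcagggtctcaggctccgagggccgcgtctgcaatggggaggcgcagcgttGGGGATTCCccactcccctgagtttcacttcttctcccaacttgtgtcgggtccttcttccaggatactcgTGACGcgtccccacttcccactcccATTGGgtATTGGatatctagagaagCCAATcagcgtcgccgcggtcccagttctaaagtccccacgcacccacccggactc
HLA-C: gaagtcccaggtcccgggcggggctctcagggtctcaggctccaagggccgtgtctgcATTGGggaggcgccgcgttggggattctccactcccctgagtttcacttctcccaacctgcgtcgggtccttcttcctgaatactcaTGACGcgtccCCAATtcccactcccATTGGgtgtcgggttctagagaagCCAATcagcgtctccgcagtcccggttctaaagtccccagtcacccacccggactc
HLA-F: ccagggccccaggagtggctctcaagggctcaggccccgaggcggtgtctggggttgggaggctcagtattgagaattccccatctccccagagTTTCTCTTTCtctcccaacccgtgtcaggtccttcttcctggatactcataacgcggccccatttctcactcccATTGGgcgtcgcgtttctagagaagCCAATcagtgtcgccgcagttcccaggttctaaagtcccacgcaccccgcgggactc
B2M: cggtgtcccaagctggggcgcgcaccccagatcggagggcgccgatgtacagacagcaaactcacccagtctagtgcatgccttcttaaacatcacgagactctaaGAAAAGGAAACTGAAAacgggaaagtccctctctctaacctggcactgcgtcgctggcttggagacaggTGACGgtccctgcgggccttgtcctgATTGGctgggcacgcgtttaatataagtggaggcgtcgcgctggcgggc
TAP1: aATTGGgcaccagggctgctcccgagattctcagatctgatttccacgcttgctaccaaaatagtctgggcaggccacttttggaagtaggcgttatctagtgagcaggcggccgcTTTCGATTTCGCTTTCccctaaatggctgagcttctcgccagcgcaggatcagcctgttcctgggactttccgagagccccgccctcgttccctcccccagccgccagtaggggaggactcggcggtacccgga
TAP2: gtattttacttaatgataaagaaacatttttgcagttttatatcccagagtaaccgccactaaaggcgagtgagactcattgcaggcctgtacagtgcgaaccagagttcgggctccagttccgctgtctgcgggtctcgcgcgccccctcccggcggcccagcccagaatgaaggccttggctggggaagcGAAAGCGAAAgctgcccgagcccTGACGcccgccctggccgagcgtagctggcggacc
The ISRE was matched in HLA-F (bases -156 to -147 from the start), TAP2 (-58 to -49), and as 2 overlapping matches each in TAP1 (-134 to -119) and B2M (-144 to -129), while 3.02% of 35116 promoters of that length held it. The X2 core was matched in HLA-B, HLA-C, B2M and TAP2, and in 21.2% of all promoters. An NF-kB match stood in HLA-B at -177 to -169 (5.78% of all promoters), and no GAS match (6.57%) or TEAD match (11.9%) stood in these 6 windows. The CCAAT box was matched in all but TAP2 and in 32.0% of all promoters. Of 10 windows for 8 members, among them second starts of TAP1 and PSMB8, 4 held an ISRE and 1, of PSMB8, a TEAD match. A match is a description of letters, and no window was available for HLA-E. Patterns were searched exactly as written, so near forms were neither marked nor counted, and an element without a match is not shown to be absent. The run tttcacttct in HLA-B and HLA-C comes near the ISRE pattern. The run gggactttcc, in TAP1 and on the other strand of B2M, comes near the NF-kB pattern. Both runs were left in lower case. The TAP1 and PSMB9 starts face away from each other, and their windows overlap.

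The smallest library was the HER2 control, with 24425556 counts, and the largest had 78945981 (empty vector, siRNA 3). The HER2 control is alone in its group and enters 5 comparisons below, which therefore share it: hydrogel and siRNA in HER2 cells, HER2 against empty vector on plastic, and both differences of response between the lines. Values are TMM-scaled CPM, the counts set to a common library size. The targeted genes followed the labels: ERBB2 stood at 361 to 614 CPM in HER2 libraries and at 57.7 to 95.5 CPM in empty-vector libraries, YAP1 was left at 8.49% to 16.9% of control by the siRNAs and WWTR1, the gene of TAZ, at 17.1% to 28.4%. KRT5, KRT8 and KRT18 were present in every library, but the defining epithelial markers KRT14, KRT17, CDH1 and TP63 were at or under 4.81 CPM in HER2 libraries, and the sum of 8 epithelial markers was 432 to 946 CPM in HER2 and 2370 to 9589 CPM in empty-vector libraries. Of leukocyte markers, CD3E had 0 counts in all libraries and PTPRC in all but control A, which had 5. The sum of 8 leukocyte markers, mostly CD14, CD68 and CSF1R, ran from 23.0 CPM in control B to 82.5 CPM in empty-vector cells on the hydrogel. The weakest member in any library was HLA-F in the HER2 control, with 105 counts.

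Among the heavy chains, HLA-B presents peptides to T cells. It stood at 219.5 and 136.2 CPM in HER2 cells with YAP/TAZ siRNA 1 and 3, at 126.5 CPM on the hydrogel and at 50.8 CPM in the HER2 control. In empty-vector cells it stood at 298.4 and 232.0 CPM with siRNA 1 and 3, at 330.5 CPM on the hydrogel and at 146.9 and 141.6 CPM in controls A and B. Both siRNA libraries and the hydrogel library lay above the controls in each line. HLA-C, the other classical chain and also a ligand of natural killer cell receptors, was at 232.4 and 230.9 CPM with siRNA 1 and 3, 226.6 CPM on the hydrogel and 97.2 CPM in the control of HER2 cells. Its values in empty-vector cells were 340.8 and 331.9 CPM with siRNA, 413.9 CPM on the hydrogel and 243.4 and 241.3 CPM in controls. The same order held, and the HER2 control was again the lowest of the 9 libraries.

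HLA-E displays leader peptides of other class I chains to NKG2A receptors. In HER2 cells it was at 75.6 and 68.5 CPM with siRNA 1 and 3, 65.7 CPM on the hydrogel and 38.8 CPM in the control, and in empty-vector cells at 175.8 and 128.7 CPM with siRNA, 274.0 CPM on the hydrogel and 112.7 and 109.2 CPM in controls. Every HER2 library lay below every empty-vector library. HLA-F, a non-classical chain that is held largely inside resting cells, was at 23.1 and 15.7 CPM with siRNA, 10.7 CPM on the hydrogel and 4.60 CPM in the control of HER2 cells. Its empty-vector values were 48.2 and 47.6 CPM with siRNA, 61.0 CPM on the hydrogel and 21.3 and 21.2 CPM in controls. B2M, the shared light chain, was at 3091 and 2928 CPM with siRNA, 2325 CPM on the hydrogel and 1987 CPM in the control of HER2 cells. In empty-vector cells B2M was at 2472 and 2461 CPM with siRNA, 4240.0 CPM on the hydrogel and 1368 and 1450.0 CPM in controls. For B2M, unlike the heavy chains, the HER2 control lay above the empty-vector controls.

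TAP1, a subunit of the peptide transporter, was at 64.9 and 38.1 CPM with siRNA 1 and 3, 34.0 CPM on the hydrogel and 18.1 CPM in the control of HER2 cells, and at 47.3 and 40.7 CPM with siRNA, 35.2 CPM on the hydrogel and 35.6 and 35.3 CPM in controls of empty-vector cells. The HER2 control alone stood well below the rest. TAP2, its partner subunit, was at 128.8 and 37.4 CPM with siRNA 1 and 3, 98.5 CPM on the hydrogel and 101.1 CPM in the control of HER2 cells, and at 63.9 and 26.6 CPM with siRNA, 41.3 CPM on the hydrogel and 95.5 and 97.0 CPM in controls of empty-vector cells. Its siRNA libraries were spread widely, with siRNA 3 the lower in both lines. PSMB8 was at 56.7 and 23.3 CPM with siRNA 1 and 3, 48.5 CPM on the hydrogel and 22.3 CPM in the control of HER2 cells, and at 40.7 and 25.0 CPM with siRNA, 54.0 CPM on the hydrogel and 33.2 and 33.7 CPM in controls of empty-vector cells. PSMB9 was at 30.7 and 12.8 CPM with siRNA 1 and 3, 18.4 CPM on the hydrogel and 14.0 CPM in the control of HER2 cells, and at 8.65 and 8.07 CPM with siRNA, 8.71 CPM on the hydrogel and 7.64 and 9.61 CPM in controls of empty-vector cells. Every HER2 library lay above every empty-vector library for PSMB9.

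**Figure D1:**
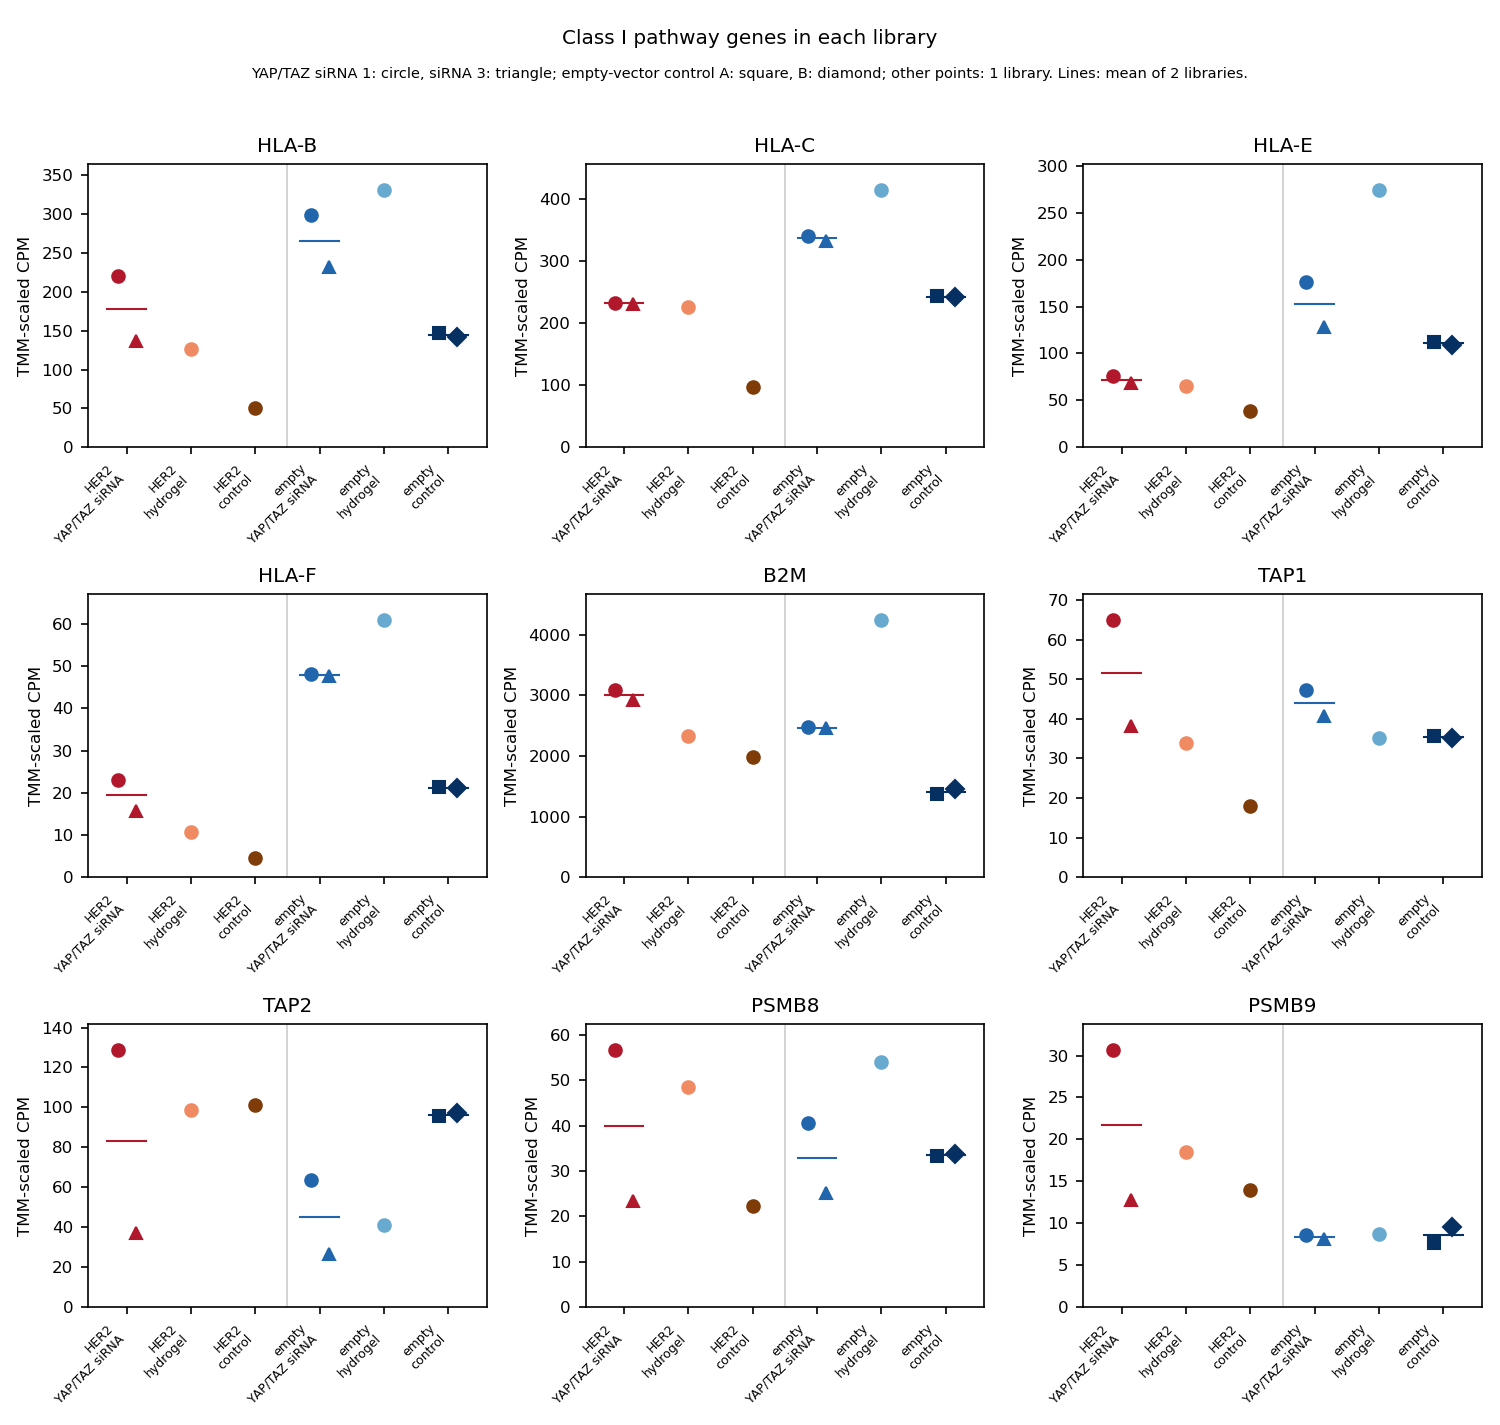
Level of each of the 9 genes in TMM-scaled CPM (linear axes from 0), 1 point per library and a line at the mean of groups with 2 libraries. HER2 groups stand left of empty-vector groups, and YAP/TAZ siRNA and hydrogel left of control. HLA-B, HLA-C, HLA-E and HLA-F are lowest in the HER2 control, and PSMB9 is highest in HER2 cells with siRNA 1 at 30.7 CPM.

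Per kilobase of transcript, levels can be set side by side between genes. In the HER2 control the order was B2M at 1166 CPM per kb, HLA-C at 63.3, TAP2 at 40.5, HLA-B at 32.8, PSMB8 at 19.9, PSMB9 at 17.9, HLA-E at 14.9, TAP1 at 6.11 and HLA-F at 2.81 CPM per kb. In the empty-vector controls it was B2M at 827 CPM per kb, HLA-C at 157.8, HLA-B at 93.2, HLA-E at 42.7, TAP2 at 38.6, PSMB8 at 29.8, HLA-F at 13.0, TAP1 at 12.0 and PSMB9 at 11.0 CPM per kb. The last 3 lay close together. HLA-C was above HLA-B in every library, with an HLA-B to HLA-C ratio of 0.938 and 0.586 with siRNA 1 and 3, 0.554 on the hydrogel and 0.519 in the control of HER2 cells, and of 0.869 and 0.694, 0.793, and 0.599 and 0.583 in the same settings of empty-vector cells. Together the 9 genes took 0.382% and 0.347% of all counts with siRNA 1 and 3, 0.292% on the hydrogel and 0.218% in the control of HER2 cells. In empty-vector cells their share was 0.357% and 0.339% with siRNA, 0.554% on the hydrogel and 0.213% and 0.218% in controls A and B, most of it B2M.

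Differences were tested across all 16117 genes kept, with edgeR's quasi-likelihood F test and Benjamini-Hochberg adjustment at 0.05. A group-means model took siRNA 1 and siRNA 3 as replicates. A reagent model also held a common term in both lines for the siRNA number (3 minus 1) and is the source of the log2 fold changes ± SE below. Where a group had 1 library, the models lend it the spread of the other groups, and comparisons that use the same libraries are not independent of each other. In bulk RNA, fewer cells expressing a gene and less RNA of it per cell cannot be told apart. For no separation of libraries given here was the share of all genes that separate in the same way counted.

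On the hydrogel, empty-vector cells carried more RNA of all 4 heavy chains and of B2M than on plastic, and less of TAP2. In the reagent model 6 of 9 members changed, where 20.2% of all genes did, and 5 rose (10.2% of all genes) and 1 fell (9.95%). The heavy chains rose by 1.20 ± 0.14 for HLA-B (edgeR adjusted p = 0.0152), 0.77 ± 0.11 for HLA-C (adjusted p = 0.0197), 1.30 ± 0.14 for HLA-E (adjusted p = 0.0134) and 1.52 ± 0.20 for HLA-F (adjusted p = 0.0168). B2M rose by 1.59 ± 0.11 (adjusted p = 0.00746), the largest increase of the 9, and TAP2 fell by 1.22 ± 0.20 (-1.22, adjusted p = 0.0228). TAP1 and PSMB9 differed by -0.01 ± 0.20 and 0.01 ± 0.39, and PSMB8 by 0.69 ± 0.21 without passing (adjusted p = 0.0737). The median over the members was 0.77, against 0.01 over all genes. The group-means model called 0 members (0% of all genes) and gave adjusted p of 0.132 to 1. Its unadjusted p was below 0.05 for 5 members and for 3064 of all 16117 genes. DESeq2 in that design called 5 members and 1750 of 13313 genes tested. The reagent model called only B2M without control A or without control B, and over its alternatives the adjusted p of the 6 ran from 1.14e-88 to 0.200. The sums of leukocyte, endothelial and fibroblast markers moved with this comparison, at 82.5, 23.3 and 61.2 CPM on the hydrogel against 24.6 and 23.0, 3.62 and 3.19, and 5.80 and 6.11 CPM in controls A and B. On the hydrogel CD14 was at 26.1 CPM against 7.41 and 6.44 CPM in controls A and B. CD68 was at 48.1 against 13.0 and 11.8 CPM, and CSF1R at 7.23 against 4.01 and 4.69 CPM. KDR at 18.9 CPM and DCN at 56.0 CPM made up most of the endothelial and fibroblast sums there. Of the 8 leukocyte markers 4 were at 0 counts on the hydrogel, PTPRC and CD3E among them. VWF and CDH5 were at most 0.862 CPM and COL1A2 at 0.144 CPM there. The part of these markers in the result was not tested.

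In HER2 cells the hydrogel was compared with plastic on 1 library each. All 4 heavy chains, TAP1 and PSMB8 were higher on the hydrogel, but none of the 9 members passed in the reagent model, where 0.186% of all genes did (0.0372% higher). The differences were 1.32 ± 0.18 for HLA-B (edgeR adjusted p = 0.0548), 1.22 ± 0.14 for HLA-C (adjusted p = 0.0522), 0.76 ± 0.17 for HLA-E (adjusted p = 0.0903) and 1.22 ± 0.26 for HLA-F (adjusted p = 0.0833). PSMB8 differed by 1.12 ± 0.25 (adjusted p = 0.0875) and TAP1 by 0.91 ± 0.24 (adjusted p = 0.110). B2M differed by 0.23 ± 0.13, PSMB9 by 0.40 ± 0.45 and TAP2 by -0.04 ± 0.22. At an unadjusted p under 0.05 there were 6 members in the reagent model and 4 in the group-means model, which called 0 as well (0% of all genes). Of all 16117 genes, 3936 and 1568 were under it in these models. Genes called by DESeq2 were 207 of 14061 tested in the group-means design and 1885 of 13687 with the reagent term. DESeq2 called 1 member in the group-means design and 6 with the reagent term, and over the alternatives of the reagent model adjusted p ran from 1.47e-50 to 1. The median over the members was 0.91, against 0 over all genes.

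The response to the hydrogel was then tested for a difference between HER2 and empty-vector cells. B2M and TAP2 were the members that departed most. The change of B2M was smaller in HER2 cells by 1.36 on the log2 scale (-1.36 ± 0.18, edgeR adjusted p = 0.0709) and that of TAP2 higher by 1.18 ± 0.29 (adjusted p = 0.0928). For TAP1 the difference was 0.92 ± 0.32 (adjusted p = 0.144). No member passed in either model (0 of 9, and 0% of all genes). At an unadjusted p under 0.05 there were 3 members in the reagent model and 1 in the group-means model. Of all 16117 genes, 4507 and 1901 were under it, and these counts of members are to be read against that. DESeq2 called 2482 of 12939 genes tested with the reagent term and 408 without. DESeq2 called 2 with the reagent term and 1 without, and over the alternatives of the reagent model adjusted p ran from 2.81e-25 to 1.

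YAP/TAZ siRNA was compared with control siRNA on plastic to see whether loss of the co-activators changes the same genes. In empty-vector cells HLA-B, HLA-C, HLA-F and B2M rose and TAP2 fell by the reagent model, 5 of 9 members where 25.7% of all genes were called (12.1% higher, 13.6% lower). HLA-F rose by 1.18 ± 0.17 (edgeR adjusted p = 0.0134), HLA-B by 0.87 ± 0.12 (adjusted p = 0.0126), B2M by 0.81 ± 0.10 (adjusted p = 0.00936) and HLA-C by 0.47 ± 0.10 (adjusted p = 0.0263). TAP2 fell by 1.22 on the log2 scale (-1.22 ± 0.16, adjusted p = 0.0108). HLA-E at 0.44 ± 0.12 did not pass (adjusted p = 0.0543), nor did TAP1 at 0.32 ± 0.17, PSMB8 at -0.06 ± 0.17 or PSMB9 at -0.02 ± 0.32. The siRNA and control libraries did not overlap for the heavy chains, B2M, TAP1 and TAP2, and did for PSMB8 and PSMB9. The share of all genes without overlap was not counted, so this is a description only. The median was 0.44 over the members and 0.02 over all genes. The leukocyte marker sum was 68.1 and 41.9 CPM with siRNA 1 and 3 against 24.6 and 23.0 CPM in controls A and B. In the same order CSF1R was at 18.0 and 12.3 against 4.01 and 4.69 CPM. CD14 was at 25.2 and 8.67 against 7.41 and 6.44 CPM, and CD68 at 24.7 and 21.0 against 13.0 and 11.8 CPM. Of the 8 markers 4 were at 0 counts in each siRNA library, CD3E and PTPRC among them. Of 4 tested, 1 rose and 0 fell in the reagent model. The fibroblast sum was 104.1 and 26.0 CPM against 5.80 and 6.11 CPM, and the endothelial sum 13.9 and 3.40 CPM against 3.62 and 3.19 CPM. The part of these markers was not tested. The group-means model called 0 members (0% of all genes). Its unadjusted p was below 0.05 for 4 members and for 3473 of all 16117 genes. DESeq2 in that design called 3 members and 2200 of 14061 genes tested. Leaving out either control, A or B, left the reagent model with 0 members, and over its alternatives the adjusted p of the 5 ran from 2.29e-92 to 0.314.

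HER2 cells with YAP/TAZ siRNA carried more HLA-B, HLA-C, HLA-F and TAP1 RNA than the HER2 control. HLA-F stood 5.03-fold above the control with siRNA 1 and 3.41-fold with siRNA 3, and HLA-B 4.32-fold and 2.68-fold. By the reagent model HLA-F rose by 2.06 ± 0.24 (edgeR adjusted p = 0.0377), HLA-B by 1.77 ± 0.16 (adjusted p = 0.0319), TAP1 by 1.47 ± 0.22 (adjusted p = 0.0429) and HLA-C by 1.25 ± 0.12 (adjusted p = 0.0333). These 4 of 9, all higher, compare with 4.24% of all genes called (2.2% higher, 2.04% lower). HLA-E at 0.89 ± 0.16 (adjusted p = 0.0505) and B2M at 0.60 ± 0.12 (adjusted p = 0.0593) did not pass, though both siRNA libraries lay above the control. PSMB8 at 0.71 ± 0.22, PSMB9 at 0.53 ± 0.40 and TAP2 at -0.54 ± 0.19 did not pass either. The median was 0.89 over the members and 0.03 over all genes. Marker sums with siRNA 1 and 3, against the HER2 control, were 29.1 and 22.0 against 5.34 CPM for fibroblasts, 37.9 and 20.7 against 13.1 CPM for endothelium and 40.1 and 55.0 against 30.2 CPM for leukocytes, and their part was not tested. The group-means model called 0 members (0% of all genes). Its unadjusted p was below 0.05 for 6 members and for 1751 of all 16117 genes. DESeq2 in that design called 4 members and 444 of 13313 genes tested. Leaving out either control, A or B, of empty-vector cells left the reagent model with 0 members here too, and over the alternatives the adjusted p of the 4 ran from 1.70e-94 to 0.153.

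The log2 fold change with siRNA was higher in HER2 than in empty-vector cells for 8 of 9 members and lower for 1, B2M (-0.21 ± 0.15). The differences were 0.90 ± 0.20 for HLA-B, 0.78 ± 0.15 for HLA-C, 0.45 ± 0.19 for HLA-E and 0.88 ± 0.29 for HLA-F. They were 1.15 ± 0.27 for TAP1, 0.68 ± 0.25 for TAP2, 0.77 ± 0.28 for PSMB8 and 0.55 ± 0.51 for PSMB9. None of these differences passed, the smallest edgeR adjusted p being 0.232. The count was 0 of 9 in both models, with 0% of all genes called. At an unadjusted p under 0.05 there were 6 members in the reagent model and 2 in the group-means model. Of all 16117 genes, 2415 and 736 were under it in these models. DESeq2 called 616 of 12190 genes tested with the reagent term and 24 without. DESeq2 called 3 with the reagent term and 0 without, and over the alternatives of the reagent model adjusted p ran from 7.13e-24 to 1.

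**Figure D2:**
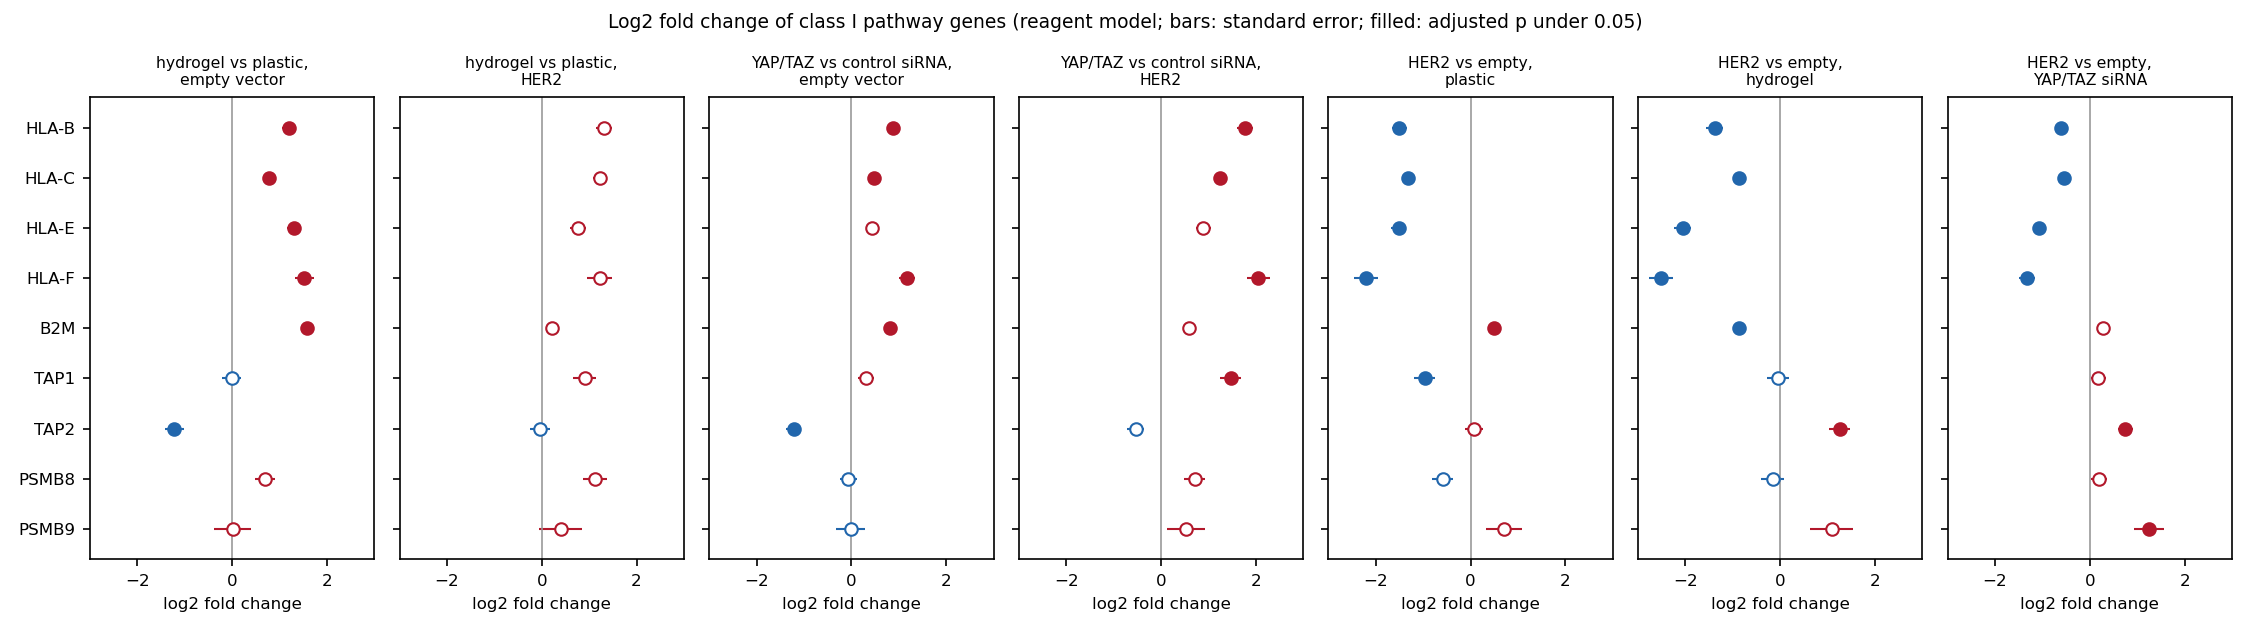
Log2 fold change of each gene in 7 comparisons, from the reagent model; bars are standard errors and filled points have an adjusted p under 0.05. Red points lie above 0 and blue points below. HLA-B, HLA-C, HLA-E and HLA-F lie right of 0 in the 4 panels for hydrogel and siRNA and left of 0 in the 3 panels for HER2 against empty vector.

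The YAP/TAZ reagents themselves differed in 3 members. siRNA 3 gave less TAP2 (-1.53 ± 0.16, edgeR adjusted p = 0.00996), PSMB8 (-0.99 ± 0.17, adjusted p = 0.0248) and HLA-B (-0.53 ± 0.12, adjusted p = 0.0463) than siRNA 1 over both lines, where 16.7% of all genes differed (7.36% higher, 9.36% lower). HLA-C (-0.02 ± 0.10) and B2M (-0.04 ± 0.09) stood nearest to 0, and all 9 differences were negative. The median over the members was -0.49, against -0.07 over all genes. Without control A or without control B only TAP2 was called, and over the alternatives the adjusted p of the 3 ran from 4.58e-90 to 0.230. In HER2 cells PSMB8 was 2.54-fold above control with siRNA 1 and 1.04-fold with siRNA 3, PSMB9 2.19-fold and 0.913-fold, and TAP2 1.27-fold and 0.369-fold. In empty-vector cells PSMB8 was at 1.21-fold and 0.748-fold, PSMB9 at 1.00-fold and 0.935-fold, and TAP2 at 0.664-fold and 0.277-fold. PSMB9 and TAP2 in HER2 cells and PSMB8 in empty-vector cells thus lay on opposite sides of the control with siRNA 1 and siRNA 3, and TAP2 lay below the control with both in empty-vector cells.

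**Figure D3:**
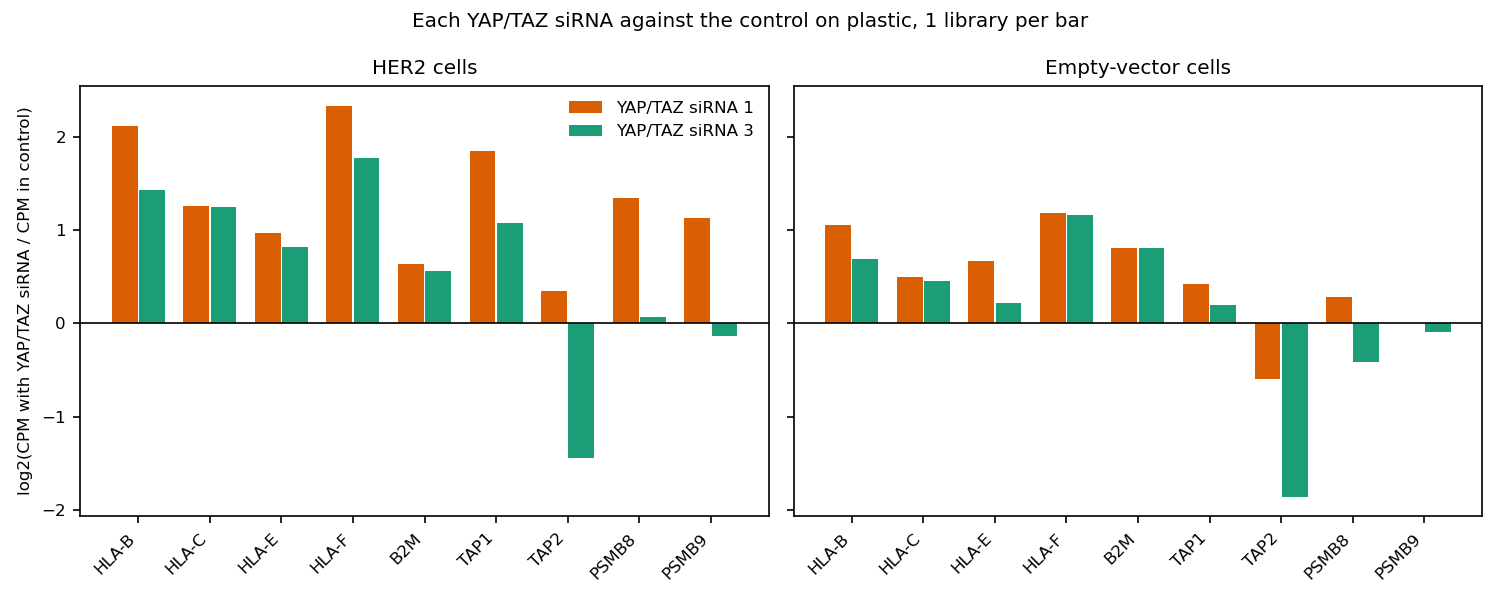
Log2 ratio of the level with YAP/TAZ siRNA 1 (orange) or siRNA 3 (green) to the control on plastic, 1 library per bar, for HER2 cells (left) and empty-vector cells (right, against the mean of controls A and B). Bars of HLA-C and B2M are nearly equal for the reagents, whereas TAP2 in HER2 cells is at 1.27-fold with siRNA 1 and 0.369-fold with siRNA 3.

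HER2 was compared with empty vector in each setting. The heavy chains were lower in HER2 cells in all 3 settings, and PSMB9 was higher in all 3, whereas the sign differed between settings for B2M, TAP1 and PSMB8. PSMB9 passed only under siRNA, in the reagent model. Of 8 epithelial markers 7 fell with them in the reagent model on plastic, the 8-marker sum being 798 CPM in the HER2 control against 4878 and 4820.1 CPM in controls A and B. That sum was 561 CPM in HER2 against 6075 CPM in empty-vector cells on the hydrogel, and 946 and 432 CPM against 9589 and 2370.4 CPM with siRNA 1 and 3, and the part of these markers in the results was not tested. The effect of HER2 and any other difference between the lines cannot be told apart. On plastic with control siRNA, the reagent model called 6 of 9 members, where 22.3% of all genes were called (9.08% higher, 13.2% lower). HLA-F fell by 2.21 (-2.21 ± 0.25, edgeR adjusted p = 0.00941), HLA-E by 1.52 (-1.52 ± 0.16, adjusted p = 0.00861), HLA-B by 1.51 (-1.51 ± 0.16, adjusted p = 0.00861), HLA-C by 1.32 (-1.32 ± 0.12, adjusted p = 0.00717) and TAP1 by 0.97 (-0.97 ± 0.22, adjusted p = 0.0362). B2M rose by 0.50 ± 0.11 (adjusted p = 0.0387). PSMB8 at -0.58 ± 0.22, PSMB9 at 0.70 ± 0.38 and TAP2 at 0.07 ± 0.19 did not pass. The median was -0.97 over the members and -0.08 over all genes. The group-means model called 0 of the 9 (1.03% of all genes, 0.8% lower), with adjusted p of 0.0542 for HLA-F and 0.0588 for HLA-C. Its unadjusted p was under 0.05 for 6 members and for 3353 of all 16117 genes. DESeq2 in that design called 4 members and 2185 of 13313 genes tested. Only HLA-F was called by the reagent model without control A or without control B, and over its alternatives the adjusted p of the 6 ran from 8.01e-79 to 0.298.

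On the hydrogel, HLA-E and HLA-F were lower in HER2 cells in both models. The controls on plastic are not part of this difference. They do enter the spread behind its p-values, since each line had 1 library on the hydrogel. HLA-F fell by 2.51 (-2.51 ± 0.25, edgeR adjusted p = 0.00725) and HLA-E by 2.06 (-2.06 ± 0.18, adjusted p = 0.00518) in the reagent model, and the group-means model gave adjusted p = 0.0452 and 0.0481, its only 2 calls among the members (1.51% of all genes, 1.34% lower). HLA-B at -1.39 ± 0.17 (adjusted p = 0.0110), HLA-C at -0.87 ± 0.14 (adjusted p = 0.0166) and B2M at -0.87 ± 0.13 (adjusted p = 0.0164) fell in the reagent model, and TAP2 rose by 1.25 ± 0.22 (adjusted p = 0.0209). That made 6 of 9 called where 25.7% of all genes were (11% higher, 14.6% lower). TAP1 at -0.05 ± 0.24, PSMB8 at -0.16 ± 0.24 and PSMB9 at 1.08 ± 0.45 did not pass. The median was -0.87 over the members and -0.08 over all genes. Without control A or without control B the reagent model called HLA-B, HLA-E and HLA-F, and the group-means model 0 members. Over the alternatives the adjusted p of called members ran from 1.98e-140 to 0.102 in the reagent model and from 1.40e-07 to 0.177 in the group-means model.

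Under YAP/TAZ siRNA the heavy chains were also lower in HER2 cells, while PSMB9 and TAP2 were higher. Without the HER2 library with siRNA 1, TAP2 turned to -0.291 in the group-means model. HLA-F fell by 1.33 (-1.33 ± 0.17, edgeR adjusted p = 0.00805) and HLA-E by 1.06 (-1.06 ± 0.12, adjusted p = 0.00632), and the group-means model called these 2 and no other member (adjusted p = 0.0439 and 0.0497), with 5.84% of all genes called (1.71% higher, 4.13% lower). In the reagent model HLA-B at -0.61 ± 0.12 (adjusted p = 0.0211) and HLA-C at -0.54 ± 0.10 (adjusted p = 0.0158) fell, and PSMB9 at 1.25 ± 0.32 (adjusted p = 0.0398) and TAP2 at 0.75 ± 0.16 (adjusted p = 0.0229) rose. These were 6 of 9 where 32.8% of all genes were called (15.4% higher, 17.5% lower), so the share of members called is to be read against a high background. TAP2 libraries of the lines overlapped, and those of the heavy chains and PSMB9 did not, with the share of all genes without overlap not counted. B2M at 0.29 ± 0.09, TAP1 at 0.18 ± 0.17 and PSMB8 at 0.19 ± 0.17 did not pass. The median was 0.18 over the members and -0.06 over all genes. Without control A or without control B the reagent model called HLA-E and HLA-F, and the group-means model 0 members. Over the alternatives the adjusted p of called members ran from 5.11e-52 to 0.108 in the reagent model and from 0.000215 to 0.161 in the group-means model.

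Ratios within a library set the parts of the pathway against each other, per kilobase. The sum of the 4 heavy chains was 0.186 and 0.160 of B2M with siRNA 1 and 3, 0.192 on the hydrogel and 0.0977 in the control of HER2 cells, against 0.353 and 0.308, 0.252, and 0.386 and 0.357 in the same settings of empty-vector cells. Every HER2 library lay below every empty-vector library. PSMB8 was 0.468 and 0.251 of PSMB5, the constitutive subunit it replaces, with siRNA 1 and 3, 0.365 on the hydrogel and 0.255 in the control of HER2 cells, and 0.435 and 0.237, 0.548, and 0.258 and 0.272 in empty-vector cells. Libraries with siRNA 1 and on the hydrogel lay above those with siRNA 3 and with control siRNA in both lines. PSMB9 was 0.279 and 0.134 of PSMB6 with siRNA 1 and 3, 0.159 on the hydrogel and 0.145 in the control of HER2 cells, and 0.0833 and 0.0633, 0.0683, and 0.0658 and 0.0786 in empty-vector cells. TAP1 was 0.425 and 0.862 of TAP2 with siRNA 1 and 3, 0.291 on the hydrogel and 0.151 in the control of HER2 cells, and 0.625 and 1.29, 0.718, and 0.314 and 0.307 in empty-vector cells. The lowest TAP1 to TAP2 ratio of each line was in a control library.

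**Figure D4:**
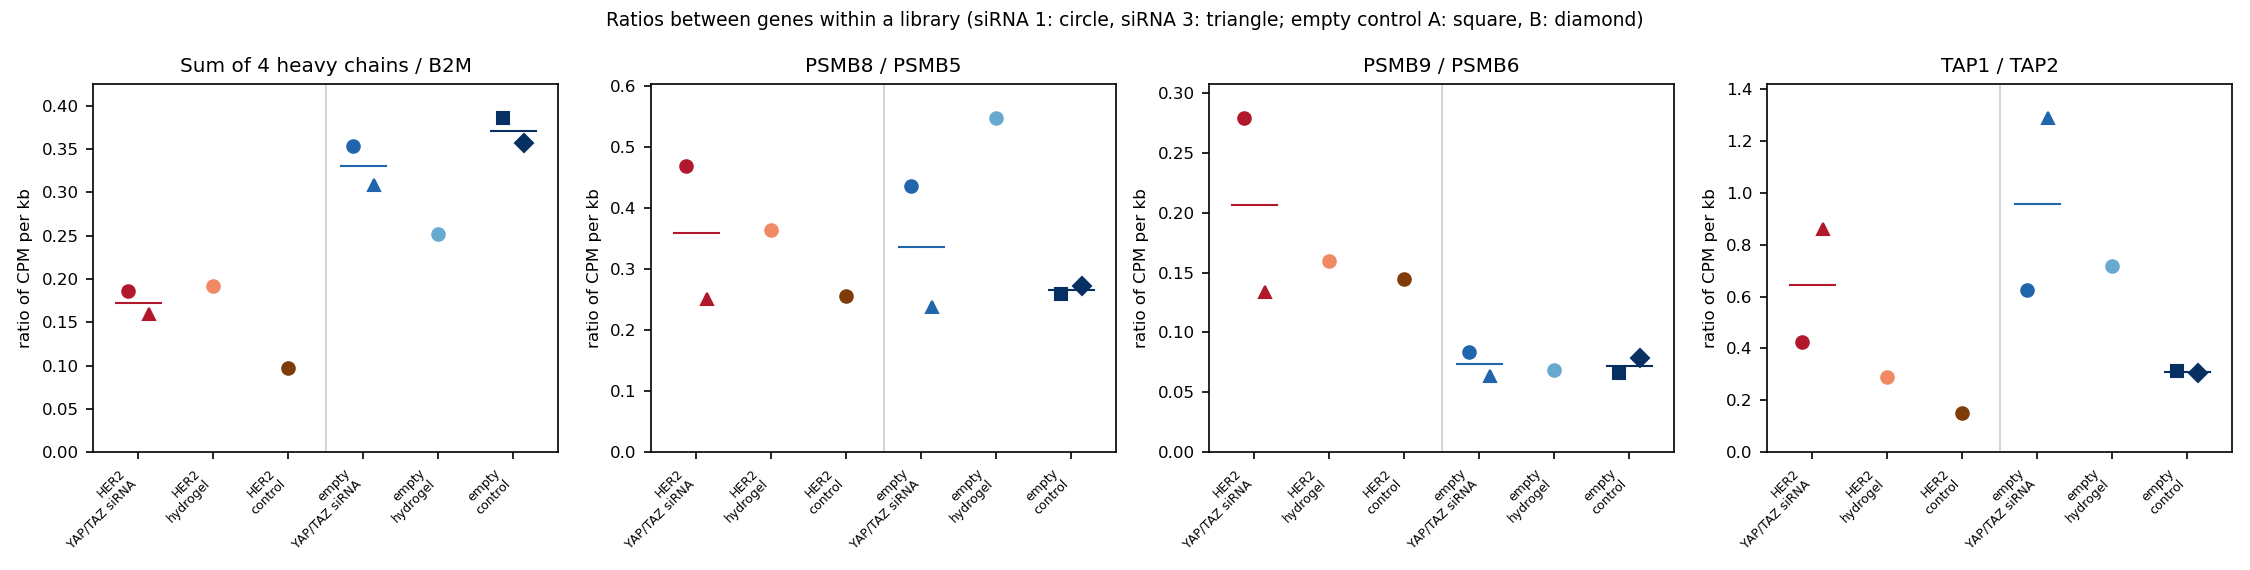
Ratios of CPM per kilobase within each library, for the sum of HLA-B, HLA-C, HLA-E and HLA-F over B2M, PSMB8 over PSMB5, PSMB9 over PSMB6 and TAP1 over TAP2, with HER2 groups left of empty-vector groups and a line at the mean of 2 libraries. The heavy chain to B2M ratio is 0.0977 to 0.192 in HER2 libraries and 0.252 to 0.386 in empty-vector libraries.

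Some of these genes share sequence or positions with others, which the counting may have split in a way not given in the sources used here. Of all 50-base stretches of its GENCODE v29 transcript, TAP2 shared 80.2% with other genes, chiefly the TAP2 readthrough gene AL669918.1, whereas HLA-C shared 6.79%, HLA-E 5.13%, HLA-B 2.54%, HLA-F 1.70% and TAP1 1.07%, and B2M, PSMB8 and PSMB9 shared 0%. HLA-F overlaps HLA-F-AS1 on the other strand in 12.3% of its exon bases, and HLA-F-AS1 had 24 to 301 counts per library. PSMB8-AS1 overlaps PSMB8 (20.6%) and TAP1 (9.49%) on the other strand and PSMB9 (5.66%) on the same strand, and PSMB8 and PSMB9 overlap each other. AL669918.1 and PSMB8-AS1 were not found under these names among the entries of the matrix. Levels of TAP2, HLA-F, TAP1, PSMB8 and PSMB9 are uncertain to an extent that was not measured.

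Other genes of the pathway were counted in the reagent model. The group-means model, which called 0% of all genes in the hydrogel and siRNA comparisons, called none of them there, nor any gene of these pathway lists in HER2 against empty vector on plastic, and over the alternatives of the reagent model the adjusted p of those named ran from 1.18e-184 (IFNGR1) to 0.387 (PSME3). Among 9 regulators of class I transcription, 4 rose and 0 fell (10.2% and 9.95% of all genes) in empty-vector cells on the hydrogel, where IRF1, an interferon-induced activator of class I promoters, rose by 1.42 ± 0.18 (edgeR adjusted p = 0.0165) and IRF9, which joins STAT2 at interferon elements, by 1.76 ± 0.24 (adjusted p = 0.0176). IRF2 and STAT2 were the other risers. The same 4 of 9 rose and 0 fell in empty-vector cells with YAP/TAZ siRNA (12.1% and 13.6% of all genes), IRF1 by 0.97 ± 0.16 (adjusted p = 0.0162) and IRF9 by 1.22 ± 0.21 (adjusted p = 0.0185). In HER2 cells with siRNA, RFXANK, a subunit of the RFX complex, rose by 0.99 ± 0.16 (edgeR adjusted p = 0.0460). On plastic 1 was higher and 2 were lower in HER2 than in empty-vector controls (9.08% and 13.2% of all genes), with IRF1 at 0.93 ± 0.18, RFXANK at -1.68 ± 0.17 and STAT2 at -0.89 ± 0.19. NLRC5, the class I co-activator, ran from 8.18 CPM in the HER2 control to 15.5 CPM in HER2 cells with siRNA 1 and was called in no comparison.

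Of 7 genes of peptide loading and trimming, TAPBP, the tapasin that bridges TAP and class I chains, moved with the heavy chains. It was at 168.1 and 146.8 CPM with siRNA 1 and 3, 109.4 CPM on the hydrogel and 82.1 CPM in the control of HER2 cells, and at 299.5 and 243.2, 251.8, and 149.6 and 143.8 CPM in the same settings of empty-vector cells. TAPBP rose by 0.78 ± 0.12 on the hydrogel (edgeR adjusted p = 0.0209) and by 0.88 ± 0.10 with siRNA in empty-vector cells (adjusted p = 0.00911), and by 0.94 ± 0.13 with siRNA in HER2 cells (adjusted p = 0.0405). It fell by 0.84 in HER2 against empty-vector controls (-0.84 ± 0.13, adjusted p = 0.0158). Its relative TAPBPL, a peptide editor, rose by 1.84 ± 0.19 on the hydrogel and by 1.53 ± 0.17 with siRNA in empty-vector cells. ERAP2, which trims peptides in the endoplasmic reticulum, was higher in HER2 controls by 1.02 ± 0.18 (adjusted p = 0.0198), as was the chaperone CANX by 0.48 ± 0.11 (adjusted p = 0.0393). Counts in this list were 2 higher and 0 lower on the hydrogel, and the same under siRNA, for empty vector, 1 and 0 with siRNA in HER2 cells and 2 and 1 in HER2 against empty-vector controls. The shares of all genes called higher were 10.2%, 12.1%, 2.2% and 9.08% in these comparisons, and 13.2% were called lower in the last.

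Most constitutive proteasome genes did not pass the test. Of 4 other immunoproteasome and activator genes, PSMB10 (1.20 ± 0.30, edgeR adjusted p = 0.0483) and PSME1 (1.27 ± 0.16, adjusted p = 0.0159) rose and PSME3 fell (-0.62 ± 0.13, adjusted p = 0.0352) when empty-vector cells were on the hydrogel. In that comparison 10.2% of all genes rose and 9.95% fell. Of 14 constitutive subunits 0 were called there, 5 lying above 0 and 9 below. With siRNA in empty-vector cells 4 of 14 fell and 0 rose (13.6% and 12.1% of all genes), among them PSMA3 by 0.70 (-0.70 ± 0.17, adjusted p = 0.0388), and all 14 lay below 0. In HER2 cells 0 of 14 were called with siRNA, 9 lying above 0 and 5 below, and 0 of 14 on the hydrogel, where all 14 lay above 0 with a median of 0.44.

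Most interferon ligands were at or near 0. IFNE, an interferon of epithelia, was the only one of 7 kept by the filter, with 6 to 128 counts per library and at most 1.58 CPM (empty vector, siRNA 3), and in the reagent model it was lower in HER2 than in empty-vector cells under siRNA (-1.83 ± 0.51, edgeR adjusted p = 0.0474; 0.175 in the group-means model, and 0.00303 to 0.249 over the alternatives of the reagent model). IFNG, IFNL2 and IFNL3 had 0 counts in every library, and IFNB1 had 6 counts in empty-vector cells on the hydrogel, 2 in HER2 cells with siRNA 1 and 0 elsewhere. Of 10 interferon-stimulated genes, 6 rose and 0 fell with the hydrogel for empty vector (10.2% and 9.95% of all genes). With siRNA in empty-vector cells 4 rose and 0 fell (12.1% and 13.6%). In HER2 cells with siRNA 2 rose and 0 fell (2.2% and 2.04%), GBP2, an interferon-induced GTPase, by 2.05 ± 0.32 (edgeR adjusted p = 0.0433) and IFI6 by 3.17 ± 0.20 (adjusted p = 0.0220). GBP2 was at 116.9 and 137.3 CPM with siRNA, 99.7 CPM on the hydrogel and 31.1 CPM in the control of HER2 cells, and at 199.4 and 124.4 CPM with siRNA, 222.6 CPM on the hydrogel and 29.5 and 32.5 CPM in controls of empty-vector cells. Among 9 receptor and kinase genes, IFNGR1, the ligand-binding chain of the interferon-gamma receptor, rose by 1.09 ± 0.17 on the hydrogel (adjusted p = 0.0211) and by 1.65 ± 0.15 with siRNA in empty-vector cells (adjusted p = 0.00695), and by 1.45 ± 0.19 with siRNA in HER2 cells (adjusted p = 0.0403). On the hydrogel 1 of the 9 rose (10.2% of all genes), with siRNA 5 rose in empty-vector cells (12.1%) and 1 in HER2 cells (2.2%), and 0 fell in these 3 comparisons.

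Class II genes, which present peptides from outside the cell and are usually a property of immune cells, stood out in HER2 cells with siRNA 1. HLA-DRA had 1638 counts (24.8 CPM) with siRNA 1, 397 counts (6.76 CPM) with siRNA 3, 115 on the hydrogel and 0 in the control of HER2 cells, and 53, 0, 29, 2 and 0 counts in the same order in empty-vector cells, with controls A and B last. Against a floor of 3 counts in the HER2 control library it was at least 189-fold higher with siRNA 1 and at least 51.5-fold higher with siRNA 3. CIITA, the master regulator of class II, had 275 and 69 counts with siRNA 1 and 3, 18 on the hydrogel and 9 in the control of HER2 cells. The sum of 7 class II genes was 66.9 and 19.7 CPM with siRNA 1 and 3, 3.50 CPM on the hydrogel and 1.18 CPM in the control of HER2 cells, and 6.42 and 1.15, 4.07, and 0.537 and 0.608 CPM in empty-vector cells. On the hydrogel, by the reagent model, 6 of the 7 lay above 0 and 0 below in empty-vector cells, with a median of 2.85. In HER2 cells 5 lay above 0 and 2 below there, with a median of 1.08. With siRNA all 7 lay above 0 in each line, with medians of 4.02 in empty-vector and 6.13 in HER2 cells. Of the 7, the reagent model had 1 that rose and 0 that fell with siRNA in each line. HLA-DPA1 rose by 6.13 ± 0.85 in HER2 cells (edgeR adjusted p = 0.0406), where 2.2% of all genes rose. It rose by 2.17 ± 0.47 in empty-vector cells (adjusted p = 0.0305), where 12.1% did. Under siRNA 5 of 7 were higher in HER2 than in empty-vector cells (15.4% of all genes), of which the group-means model called 0. CXCL10, an interferon-induced chemokine, had 26.9 CPM in HER2 cells with siRNA 1 and at most 2.69 CPM in the other libraries. HER2 cells with siRNA 1 were the highest library of these genes and, among the members, of TAP1, TAP2, PSMB8 and PSMB9. The heavy chains and B2M were highest in empty-vector cells on the hydrogel.

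Among class I-like genes, MR1, which presents vitamin B metabolites to MAIT cells, followed the heavy chains. It was at 61.1 and 42.0 CPM with siRNA 1 and 3, 36.4 CPM on the hydrogel and 29.2 CPM in the control of HER2 cells, and at 134.6 and 79.6, 150.6, and 51.6 and 48.5 CPM in the same settings of empty-vector cells. MR1 rose by 1.59 ± 0.14 on the hydrogel (edgeR adjusted p = 0.00974) and by 1.05 ± 0.12 with siRNA in empty-vector cells (adjusted p = 0.00870), and it fell by 0.78 in HER2 against empty-vector controls (-0.78 ± 0.15, adjusted p = 0.0257). MICB, a stress-induced ligand of the NKG2D receptor, fell by 1.13 on the hydrogel (-1.13 ± 0.28, adjusted p = 0.0472) and by 1.21 with siRNA in empty-vector cells (-1.21 ± 0.22, adjusted p = 0.0203). Of 6 such genes, on the hydrogel 1 rose and 1 fell for empty vector (10.2% and 9.95% of all genes). With siRNA 1 rose and 2 fell in empty-vector cells (12.1% and 13.6%), and 0 and 0 in HER2 cells (2.2% and 2.04%). Such small counts are to be read against these shares.

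Over the 9 libraries, log2 CPM of the heavy chains followed each other at Pearson r of 0.88 to 0.96. With the mean of the 9 members' z-scores, which contains them, r was 0.91 for HLA-B, 0.83 for PSMB8 and TAP1, 0.81 for HLA-C, 0.78 for HLA-F, 0.70 for HLA-E, 0.58 for B2M, 0.13 for PSMB9 and -0.11 for TAP2. PSMB9 and TAP2 thus stood apart from the rest. Of 10378 other genes expressed well enough to rank (mean log2 CPM from 2 upward), those nearest to that mean were NTPCR (0.97), BCKDHB (0.96), COX7A2 (0.95), ACAA1 (0.94), RNF11, PDZK1IP1, MMP15, RPL19, SNCG and WARS2 (0.93 to 0.94). NTPCR, for example, was at 27.2 and 22.6 CPM with siRNA 1 and 3, 24.7 CPM on the hydrogel and 16.4 CPM in the control of HER2 cells, and at 25.6 and 22.7, 28.4, and 22.0 and 21.6 CPM in empty-vector cells, a narrower range than that of any heavy chain. These are descriptions over 9 libraries of 6 groups that share controls, with no test.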

How the data were processed

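Whole-number read counts per gene were deposited by the authors as 1 matrix for 9 RNA-seq libraries of total RNA depleted with Ribo-Zero. Per the submitters' processing notes, STAR 2.5.3a, featureCounts, edgeR and hg19 were used; strand handling, annotation and the treatment of multimapping reads are not given in the sources used here. All 9 count columns were used, and 1 entry without a symbol (0 counts) was left out. Genes were kept at a minimum count of 10 by filterByExpr, which left 16117. Counts were scaled by TMM and tested with edgeR 4.0.16 (R 4.3.3) by the quasi-likelihood F test, adjusted over all genes kept. The group-means model has 3 residual degrees of freedom, and the reagent model, which uses the siRNA number as a replicate block, has 2. Standard errors are the log2 fold change over the square root of F. Alternatives were RLE scaling, no filter, DESeq2 1.42.0, the block, and leaving out each library of a pair; repeating them within the reagent model was chosen after seeing the data. Without an siRNA library the reagent model rests on controls A and B alone, and its p-values become very small. The siRNA numbers name reagents: the difference of siRNA 3 and siRNA 1 over 16117 genes had r = 0.415 between the lines, over 2 pairs. The members and gene lists were chosen with earlier results of these data known. Named genes are the members, genes of the pathway lists, and the 10 other genes (mean log2 CPM of at least 2) whose log2 CPM had the highest r with the mean z-score of the members. Promoters come from RefSeq on GRCh38.p14 (8 of 9 members matched), and lengths from GENCODE v29. The fits were also run on simulated counts, with less spread than the data and a reagent effect equal in both lines. That run cannot test whether the common reagent term holds in these data. Depth, 24425556 to 78945981 counts, gives a floor of 3 counts, or 0.0371 to 0.131 CPM; it covers counting error only. Some genes of the lists are not reported here.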

Additional observations from a re-analysis of the deposited data

How the results depend on the processing

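Members called by the group-means model moved with the setting. For the hydrogel in empty-vector cells 0 members became 5 with DESeq2 and 6 with the replicate block, and 0 to 2 when a library was left out; for siRNA in empty-vector cells 0 became 3, 5, and 0 to 2. For siRNA in HER2 cells 0 became 4 with DESeq2 and 4 with the block, and for the hydrogel in HER2 cells and its difference between lines 0 became 1 with DESeq2. For HER2 against empty vector, 0 on plastic became 4 with DESeq2, 2 with no filter, 6 with the block and 0 to 4 with a library left out; 2 on the hydrogel became 5, 6 with the block, and 0 to 5; 2 under siRNA became 4 with DESeq2, 1 with RLE, 6 with the block and 0 to 2. In the reagent model, leaving out a library gave 1 to 8 members against 6 for HER2 on plastic, 3 to 7 against 6 on the hydrogel and 2 to 9 against 6 under siRNA. It gave 1 to 7 against 6 for the hydrogel in empty-vector cells, 0 to 9 against 5 for siRNA in empty-vector cells, 0 to 9 against 4 in HER2 cells and 1 to 6 against 3 between reagents. The hydrogel in HER2 cells, 0 there, became 6 with DESeq2, 2 with no filter and 0 to 8; its difference between lines 0 became 2 with DESeq2 and 0 to 6, and that of siRNA 3 with DESeq2 and 0 to 8. DESeq2 called more of all genes than edgeR did in every comparison and model, and its counts of members are to be read against this. With a library left out, the number of all genes called also changed widely in the reagent model. The ranges of members called are to be read against it and are no result about the members. Every member called by the reagent model kept its sign in the alternatives run within that model, while TAP2 under siRNA turned in the group-means model. Other signs turned for members not called. On the hydrogel in empty-vector cells TAP1 became 0.0213 with DESeq2 and 0.0214 with RLE, and PSMB9 -0.0546 (reagent model -0.0547) with no filter. With siRNA in empty-vector cells PSMB8 became 0.00813 with DESeq2 and 0.00828 with RLE, and PSMB9 in the reagent model 0.0153 and 0.0158. With a library left out, the log2 fold change on the hydrogel in empty-vector cells ran from -0.110 to 0.220 for PSMB9 and from -0.0517 to 0.0273 for TAP1. With siRNA in empty-vector cells it ran from -0.414 to 0.258 for PSMB8 (reagent model -0.396 to 0.240), from -0.137 to 0.194 for PSMB9 (-0.665 to 0.550) and from -0.00199 to 0.602 for TAP1 in the reagent model. With siRNA in HER2 cells it ran from -0.135 to 1.13 for PSMB9 (reagent model -0.0986 to 1.08) and from -1.44 to 0.350 for TAP2. The difference of the siRNA response between lines ran from -0.0792 to 1.18 for PSMB9 (reagent model -0.0417 to 1.17) and from -0.336 to 1.58 for TAP2. HER2 against empty vector under siRNA ran from -0.512 to 0.787 for PSMB8 (reagent model -0.137 to 0.499), from -0.226 to 0.561 for TAP1 (-0.128 to 0.476) and from -0.291 to 1.63 for TAP2. siRNA 3 against siRNA 1 ran from -0.106 to 0.0209 for B2M and from -0.589 to 0.00933 for HLA-F. The causes were not tested, except that fewer libraries enter a fit with a library left out. RLE scaling moved the median of all genes by at most 0.0549. With 1 library on the hydrogel in each line and 1 HER2 control, the spread of these groups was not measured.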
